A study of Mus musculus with 6 samples.

Results

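This section describes the type 2 cytokines Il4, Il5 and Il13, the epithelial alarmins Il33 and Tslp, the receptor chains Il4ra, Il13ra1, Il13ra2 and Il1rl1, and the transcription factor Gata3 in allergic mouse lung. A gene was kept if the annotation of the array gave its symbol and its probe had a value on at least 4 of the 6 arrays. Of the 10 named genes, 8 had a row, 1 probe each, and 7 met the rule, out of 9774 genes measured this way. Il13ra2 had values in mice 1 and 6 alone, at -0.08 and -0.13 on the log2 scale, and was left out. Il4ra and Il1rl1 were not analysed here. Among the 7, Il4 and Il33 had values in 5 mice and the others in 6.

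Lungs of 6 C57 mice that had been sensitized to ovalbumin (OVA) and challenged with it were each hybridised on a two-colour array against 1 pool of amplified lung RNA from control C57 mice, whose number the labels do not state. Age, dose and time after challenge are not stated there. The values are log ratios of the 2 channels, 1 per spot, read here as log2 and centred on the median of each array. The labels name the OVA mouse first but do not settle the direction or the dyes. Ratios keep their deposited sign apart from the shift by centring, and no sign is assigned to the OVA mice. Clca1, a secreted regulator of mucus that IL-13 induces in airway epithelium, lay on the negative side and serves below to name the sides. Ratios give no level, so lung markers could not be checked by abundance. Of 20 epithelial markers on the array 18 had values in at least 4 mice. So did 11629 of all 17280 probes, control rows left out, and having a value does not identify the tissue.

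In type 2 immunity, damaged or stimulated epithelium releases the alarmins IL-33 and TSLP, which act on type 2 innate lymphoid cells, dendritic cells, mast cells and T helper cells. Gata3 drives the type 2 programme in T helper and innate lymphoid cells, which then secrete IL-4, IL-5 and IL-13. IL-5 sustains eosinophils. IL-4 and IL-13 signal through IL-4 receptor alpha, paired with IL-13 receptor alpha 1 in epithelium and macrophages, and STAT6 carries this signal to the nucleus. Il13ra2 encodes a receptor that binds IL-13 with high affinity and is commonly called a decoy.

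The genes Il4, Il13 and Il5 lie side by side on mouse chromosome 11 in 1 cytokine locus, in the order Kif3a, Il4, Il13, Rad50, Il5 and Irf1 among the protein-coding genes. The 250 bases before the outermost start of each are shown with those of Il33 because these are the ligands whose ratios lay on the side of Clca1. They were taken from RefSeq on build GRCm38.p6, the build of that table alone. Il4 is at chr11:53618666-53618915 on the minus strand, Il13 at chr11:53634703-53634952 on the minus strand, Il5 at chr11:53720544-53720793 on the plus strand and Il33 at chr19:29924863-29925112 on the plus strand. All are upstream of the gene and read 5′ to 3′ along it. Capitals mark every match, on either strand, to a GATA word, which is the run AGATAA, or the run AGATAG, or the run TGATAA, or the run TGATAG, or to the STAT6 word, TTCNNNNGAA. No match of one overlapped one of the other.
Il4: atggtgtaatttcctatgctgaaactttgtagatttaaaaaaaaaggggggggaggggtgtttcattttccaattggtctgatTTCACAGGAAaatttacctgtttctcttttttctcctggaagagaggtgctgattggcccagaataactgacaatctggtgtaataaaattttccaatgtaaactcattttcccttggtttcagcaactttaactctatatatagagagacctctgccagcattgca
Il13: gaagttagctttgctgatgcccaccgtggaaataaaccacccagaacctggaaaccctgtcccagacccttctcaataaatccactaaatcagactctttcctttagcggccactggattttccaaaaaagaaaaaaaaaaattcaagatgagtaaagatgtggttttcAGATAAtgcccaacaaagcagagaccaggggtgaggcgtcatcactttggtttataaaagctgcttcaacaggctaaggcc
Il5: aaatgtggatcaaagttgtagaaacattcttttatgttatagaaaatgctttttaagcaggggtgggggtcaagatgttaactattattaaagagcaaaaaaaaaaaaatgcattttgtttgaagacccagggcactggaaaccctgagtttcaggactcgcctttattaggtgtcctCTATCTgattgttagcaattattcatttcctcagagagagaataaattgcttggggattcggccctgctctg
Il33: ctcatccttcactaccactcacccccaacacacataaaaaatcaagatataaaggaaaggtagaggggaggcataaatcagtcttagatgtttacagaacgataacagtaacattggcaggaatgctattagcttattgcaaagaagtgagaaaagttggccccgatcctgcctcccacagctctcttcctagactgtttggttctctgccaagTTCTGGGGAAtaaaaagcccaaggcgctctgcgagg
The Il13 and Il5 windows each held 1 GATA word, beginning 81 and 72 bases before the start, and none of the STAT6 word. The Il4 and Il33 windows each held 1 STAT6 word, beginning 167 and 36 bases before the start, and no GATA word. This holds for the outermost starts: the table gives a second start for Il4 and for Il33. The window of that Il4 start, chr11:53617339-53617588, held 1 GATA word, beginning 80 bases before it, and no STAT6 word, and that of Il33, chr19:29945540-29945789, held neither. Of 32841 promoter windows of the same length, 26.5% held a GATA word and 5.85% the STAT6 word. These matches are descriptions of sequence, and the arrays did not measure binding.

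The 7 genes split between the signs. Of the 7 means, 5 lay on the side of Clca1 in their mean, and Tslp and Gata3 lay on the other side. Il33 passed the test with a negative mean, Tslp and Gata3 passed with a positive mean, and Il4, Il5, Il13 and Il13ra1 did not pass (limma, ratio against 0, Benjamini-Hochberg adjusted p of 0.05 over 11629 probes). Of all tested probes, 24.4% passed, 12.3% on the negative side and 12.0% on the positive side, and the count of 3 in 7 is to be read against these shares. None of the 7 reached a 2-fold mean, which 174 of the called probes did. The median of the 7 means was -0.178, against -0.0033 over all tested probes, and their median distance from 0 was 0.361 against 0.110. Their median SD between mice was 0.273 against 0.143. In bulk lung RNA, a difference in the number of cells of a type and a difference in RNA per cell cannot be told apart. Every array used the same pool, which counts as 1 control sample, and the spread between control mice is therefore not part of any test. The labels do not settle the dyes and the fit held no dye term. A dye effect of a probe that all arrays share cannot be told apart from a difference between the OVA mice and the pool.

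**Figure D1:**
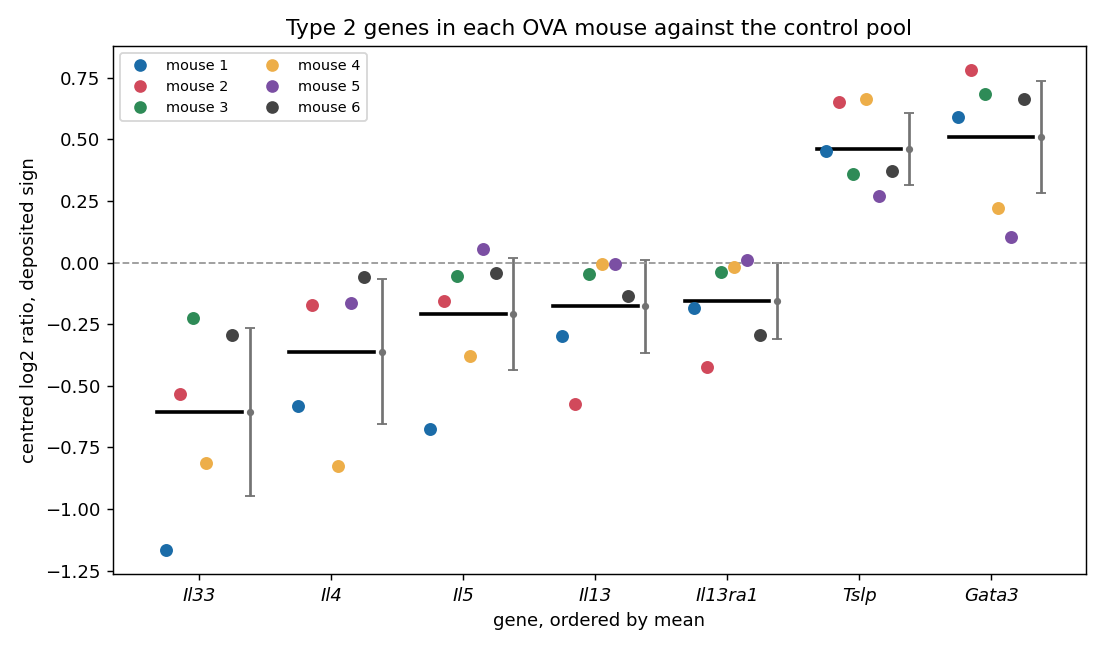
Centred log2 ratio (deposited sign, vertical axis) of 7 type 2 genes in each OVA mouse, 1 point per mouse; black bars are means, and grey points with bars are the same means with 95% confidence intervals from the limma fit. Tslp and Gata3 are above 0 in 6 of 6 mice, Il33 is below 0 in each of its 5 mice, and Il4 to Il13ra1 approach 0 in part of the mice.

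Il33 encodes an alarmin of the IL-1 family that is held in the nucleus of epithelial and endothelial cells and bound outside the cell by the receptor chain that Il1rl1 encodes. Its log2 ratio was -1.17 in mouse 1, -0.53 in mouse 2, -0.23 in mouse 3, -0.81 in mouse 4 and -0.30 in mouse 6, with no value in mouse 5. All were negative; mice 1 and 4 stood lowest and mice 3 and 6 nearest to 0. The mean was -0.61 ± 0.39 (SD, n = 5; 95% confidence interval -0.95 to -0.27), a distance of 1.52-fold from the pool (limma, adjusted p = 0.0264). It reached 2.25-fold in mouse 1. Without mouse 2 the mean was -0.63 and no longer passed (limma, adjusted p = 0.0755), and without mouse 4 it was -0.56 (limma, adjusted p = 0.0888). Among the tested probes of their arrays, the Il33 ratios of mice 1 and 4 were at percentiles 2.27 and 2.53, those of mice 2 and 3 at 7.56 and 11.6, and that of mouse 6 at 15.4.

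Tslp encodes the other alarmin, an IL-7-like cytokine of epithelial cells that acts on dendritic cells and lymphocytes. It lay on the opposite side to Il33: its log2 ratio was 0.45 in mouse 1, 0.65 in mouse 2, 0.36 in mouse 3, 0.66 in mouse 4, 0.27 in mouse 5 and 0.37 in mouse 6. All mice were positive, and mice 2 and 4 stood highest. The mean was 0.46 ± 0.16 (SD, n = 6; 95% confidence interval 0.32 to 0.61), 1.38-fold from the pool (limma, adjusted p = 0.00547). Tslp had the smallest spread of the 7 genes and passed in each fit that left out 1 mouse, with means from 0.42 to 0.50. In each of the 5 mice with both values, Il33 was negative and Tslp positive. Both genes had their larger distances from 0 in mice 2 and 4, and Il33 also in mouse 1.

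Technical spread can be read from 10 sequences that are spotted 17 times each on the array. The median SD of such repeats within an array was between 0.0911 and 0.136. The largest SD of a single repeated sequence was higher, from 0.1715 in mouse 4 to 0.5 in mouse 1. The counts here use the median and would be lower with the largest SD. Tslp exceeded 2 median SDs in 6 of 6 mice, in mouse 5 narrowly at 0.270 against 0.264. Gata3 did so in 5 of 6 and Il33 in 4 of 5. Il4 did so in 2 of 5 mice, and Il5, Il13 and Il13ra1 each in 2 of 6.

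The cytokines of type 2 lymphocytes had smaller means with wide intervals. Il4, which drives type 2 differentiation and the switch to IgE, was at -0.58, -0.17, -0.83, -0.17 and -0.06 in mice 1, 2, 4, 5 and 6 on the log2 scale. It was negative in 5 of 5 mice, but mice 1 and 4 carried most of the distance. Its mean was -0.36 ± 0.33 (SD, n = 5; 95% confidence interval -0.65 to -0.07) and did not pass after adjustment (limma, adjusted p = 0.0749). Il5 was at -0.68 in mouse 1, -0.16 in mouse 2, -0.05 in mouse 3, -0.38 in mouse 4, 0.06 in mouse 5 and -0.04 in mouse 6. Mice 1 and 4 again stood apart from the others, which lay near 0. The Il5 mean was -0.21 ± 0.27 (SD, n = 6; 95% confidence interval -0.43 to 0.02; limma, adjusted p = 0.151). Il13, the cytokine that induces mucus-producing cells in the airway, was at -0.30, -0.57, -0.05, -0.01, -0.005 and -0.14 in mice 1 to 6. Here mouse 2 stood lowest and mouse 4, low for Il4 and Il5, was near 0. The Il13 mean was -0.18 ± 0.22 (SD, n = 6; 95% confidence interval -0.37 to 0.01; limma, adjusted p = 0.146). The intervals allow distances up to 1.57-fold for Il4, 1.35-fold for Il5 and 1.29-fold for Il13, so a missed threshold does not show that these transcripts matched the pool.

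The neighbours of these genes in the cytokine locus were also measured in part. Rad50, a DNA repair gene between Il13 and Il5, was at 0.008 ± 0.27 (SD, n = 5), and Irf1, an interferon-induced factor beyond Il5, at -0.05 ± 0.34 (SD, n = 5). Neither passed (limma, adjusted p = 0.962 and 0.802). In mouse 1, where Il4 and Il5 were lowest or next to lowest, Rad50 lay at 0.47, and Irf1 had no value there.

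Il13ra1 encodes the chain that binds IL-13 and joins the IL-4 receptor alpha chain. It was at -0.18, -0.42, -0.04, -0.02, 0.01 and -0.29 in mice 1 to 6. Mice 2 and 6 stood lowest, and mice 1, 3, 4 and 5 lay within 2 SDs of the repeated spots from 0. Its mean of -0.16 ± 0.17 (SD, n = 6; 95% confidence interval -0.31 to -0.004) did not pass after adjustment (limma, adjusted p = 0.119). At an unadjusted p of 0.05, 5 of the 7 genes passed, the called genes with Il4 and Il13ra1, against 39.2% of all tested probes. The same sign in every mouse with a value was seen for 5 of the 7 genes, against 30.2% of tested probes and also 30.2% of those with 6 values. Il13 is among the 5 by values of -0.007 in mouse 4 and -0.005 in mouse 5, within 2 SDs of the repeated spots. The median taken off the array of mouse 5 was 0.008, so the sign of Il13 there depends on the centring.

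Gata3, a zinc finger factor of type 2 lymphocytes that also acts in other cell types, was on the side of Tslp. Its log2 ratio was 0.59 in mouse 1, 0.78 in mouse 2, 0.68 in mouse 3, 0.22 in mouse 4, 0.11 in mouse 5 and 0.66 in mouse 6. All mice were positive; mice 4 and 5 stood low and did not overlap with the other 4, which lay close together. The mean was 0.51 ± 0.28 (SD, n = 6; 95% confidence interval 0.28 to 0.73), 1.42-fold from the pool (limma, adjusted p = 0.0121). It passed in each fit that left out 1 mouse, with means from 0.45 to 0.59. In mouse 3 the Gata3 ratio was at percentile 99.5 of the array, its highest place, and in mouse 5 at 71.4.

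**Figure D2:**
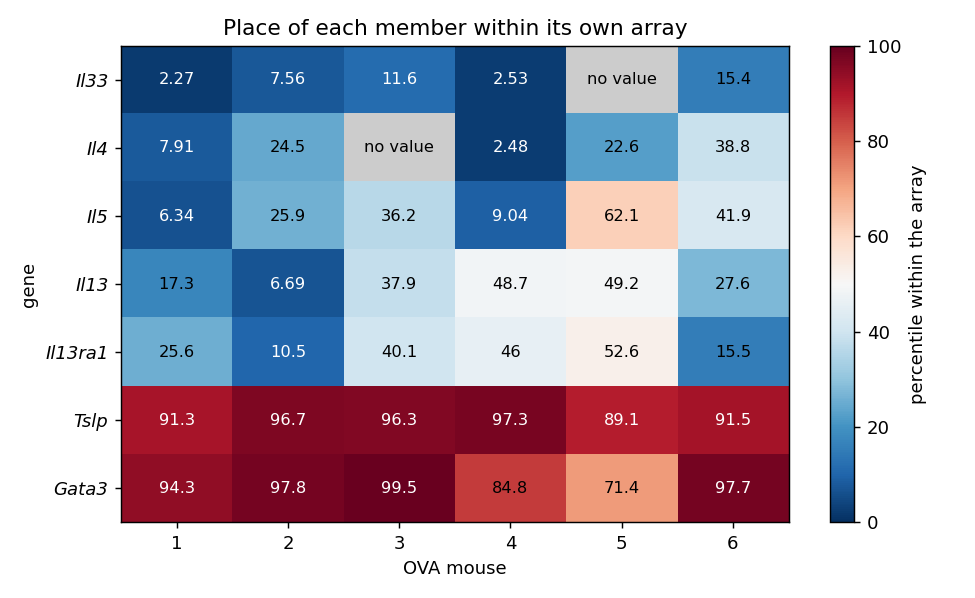
Percentile (0 to 100, colour and printed number) of each of 7 type 2 genes (rows) among the tested probes of each OVA mouse's own array (columns); low percentiles are the most negative ratios, and grey cells had no value. Tslp lies between 89.1 and 97.3 in every mouse, while Il5 runs from 6.34 in mouse 1 to 62.1 in mouse 5.

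The order of the 7 means, from the most negative, was Il33, Il4, Il5, Il13, Il13ra1, Tslp and Gata3. Neighbours in this order differed by less than their SDs except between Il13ra1 at -0.16 and Tslp at 0.46. For the called genes with values in all 6 mice, the most alike ratios among 7815 other gene-named probes were sought by the root-mean-square difference in log2 ratio over the 6 mice. For Tslp these were Atg2a, an autophagy protein, at 0.0803, the growth hormone receptor Ghr at 0.0969 and the clock output factor Dbp at 0.101. For Gata3 they were 2610035D17Rik at 0.184, Clec3b, which encodes tetranectin, at 0.196 and the mitochondrial dicarboxylate carrier Slc25a10 at 0.196. The mean log2 ratios of these 6 genes were between 0.44 and 0.64.

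Other ligands and receptors of the pathway lay mostly on the side of Clca1. Of 20 such genes 10 could be tested, with 4 negative calls, no positive call and a median log2 ratio of -0.22. This is 40.0% called, against 24.4% of all tested probes. Csf2rb2, a mouse beta chain that serves the IL-3 receptor, was at -0.89 ± 0.45 (SD, n = 6; limma, adjusted p = 0.00954). Il31, a cytokine of type 2 T cells linked to itch, was at -0.57, and Osmr, a chain that IL-31 and oncostatin M receptors share, at -0.53. The fourth was Csf2ra, a receptor chain for GM-CSF, at -0.21. Il31 was lowest in mouse 5 at -1.32, where Il5, Il13 and Il13ra1 lay near 0. Il7r and Il17rb, receptor chains for TSLP and IL-25, had no call, with means of -0.24 and -0.22. Crlf2, Il1rap, Il5ra, Il9 and Il25 had values on fewer than 4 arrays. Without mouse 2 or mouse 6 there were 2 calls in this list, both negative, and without mouse 1 there were 2 negative calls and 1 positive call.

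Of 30 signal transduction genes 17 were tested, with 3 negative and 2 positive calls and a median of -0.04. This is 29.4% called, near the 24.4% of all tested probes. Socs1, an inhibitor of cytokine receptor kinases that IL-4 and interferons induce, was at -1.24 ± 0.74 (SD, n = 6; limma, adjusted p = 0.0142), lowest in mouse 1 at -2.42. Socs1 is also in the list of response genes below. The kinase Jak2 was at -0.74 and Tab2, an adaptor of IL-1 family signalling, at -0.36. On the other side, Sigirr, an inhibitory member of the IL-1 receptor family, was at 0.58 ± 0.20 (SD, n = 6; limma, adjusted p = 0.00448) and was positive in 6 of 6 mice. Stat6 had no call at -0.08, with single mice between -0.52 and 0.26.

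Among 20 other transcription factors of type 2 lymphocytes 14 were tested, with 3 negative calls, no positive call and a median of -0.08. This is 21.4% called, against 24.4% of all tested probes. Rbpj, the nuclear partner of Notch, was at -0.58 ± 0.18 (SD, n = 6; limma, adjusted p = 0.00376), Bhlhe40 at -0.49 and Nfatc2, a calcium-regulated factor of cytokine genes, at -0.13. Without mouse 2 or mouse 6 there was 1 call. Genes of type 1 immunity had 1 negative and 2 positive calls among 13 tested of 18, with a median of -0.07, which is 23.1% called against the same background. Ifng, the type 1 cytokine, was at 0.23 and Il12a, a subunit of IL-12, at 0.28, each positive in 6 of 6 mice, and the receptor chain Il18r1 was at -0.41. Without mouse 2 or mouse 4 there was 1 call in the type 1 list, and it was positive. The call of Il18r1 was also lost without mouse 3 and after quantile normalization.

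**Figure D3:**
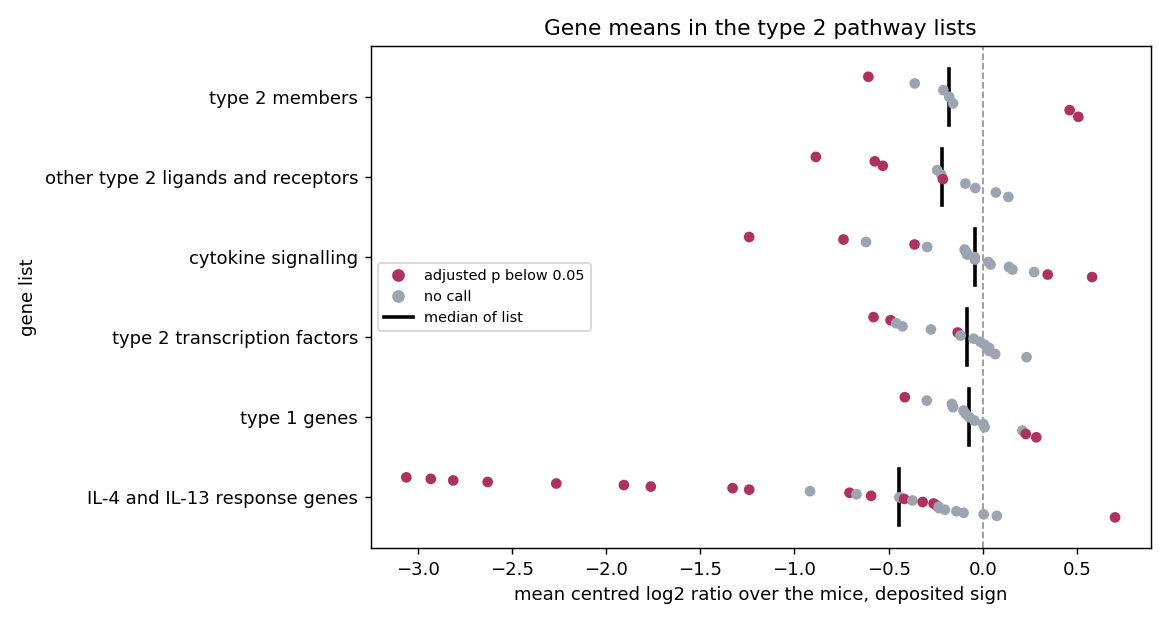
Mean centred log2 ratio over the mice (horizontal axis, deposited sign) of each tested gene in 6 lists (rows), 1 point per gene; red points passed an adjusted p of 0.05, grey points did not, and black bars are list medians. The response genes reach -3.06, whereas the 7 type 2 genes lie between -0.61 and 0.51.

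Genes that IL-4 or IL-13 induce in epithelium and macrophages lay mostly on the side of Clca1, 24 of the 27 tested by the sign of their mean. Clca1 names the side and is itself among these 24. The median over all tested probes was -0.0033. The list held 36 such genes, with 15 negative calls and 1 positive call and a median of -0.44. This is 59.3% of the 27 called, against 24.4% of all tested probes. Of the 27 means, 10 lay nearer to 0 than that of Il4. Clca1 was at -3.06 ± 1.95, Slc26a4, the anion exchanger pendrin, at -2.93 ± 1.32, Retnla, a resistin-like protein of macrophages, at -2.81 ± 2.11 and the mucin Muc5ac at -2.63 ± 1.70 (SD, n = 6 each). Leaving out mouse 1, 2, 4, 5 or 6 left 7, 5, 4, 9 or 6 negative calls, and leaving out mouse 3 gave 17, each beside 1 positive call. The calls over all probes moved too, from 2832 to 2356, 1376, 1325, 2050 and 1708 without mice 1, 2, 4, 5 and 6 and to 3036 without mouse 3. The median of the list was -0.36 without mouse 1 and between -0.53 and -0.41 without any other mouse.

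The array of mouse 3 stood apart from the others. Its SD over probes was 0.211 against 0.321 to 0.471 in the other arrays, and its correlation with them across probes was between 0.17 and 0.42. Clca1, Retnla and Muc5ac were positive in mouse 3, at 0.84, 1.00 and 0.22, and Slc26a4 was at -0.74. In mouse 3, Il5 and Il13 were near 0, each at -0.05, whereas Il33 was at -0.23 and Il4 had no value. Tslp at 0.36 and Gata3 at 0.68 were at percentiles 96.3 and 99.5 of that array. Without mouse 3 the means of Il33, Tslp and Gata3 were -0.70, 0.48 and 0.47, and all passed (limma, adjusted p = 0.0203, 0.00503 and 0.022). The array of mouse 1 had the largest SD over probes, 0.471. Its limma array weight was the lowest, 0.557 against 0.739 for mouse 3 and 1.061 to 1.534 for the others. Without mouse 1 the Il33 mean was -0.47 and passed (limma, adjusted p = 0.0356).

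**Figure D4:**
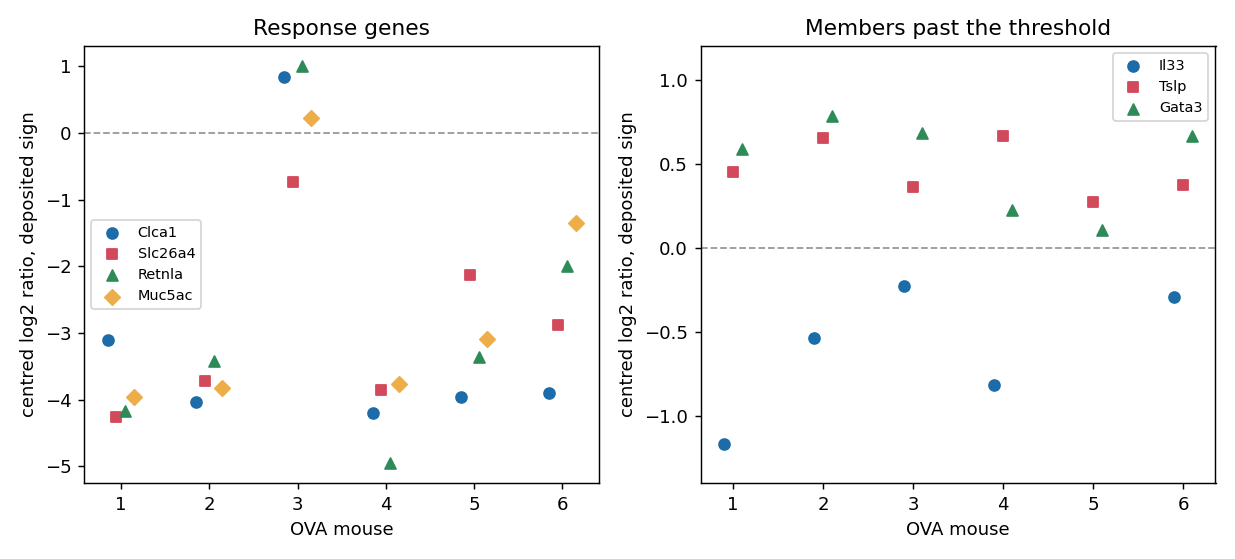
Centred log2 ratios (vertical axes, deposited sign) in each OVA mouse for 4 IL-4 and IL-13 response genes (left) and for the 3 type 2 genes past the threshold (right), 1 point per mouse and gene; the vertical scales differ. Clca1, Retnla and Muc5ac cross 0 in mouse 3, at 0.84, 1.00 and 0.22, whereas Gata3 is at 0.68 there and positive in every mouse.

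Markers of the cells that make or receive these cytokines had calls in part. Against 24.4% of all tested probes, the called shares were 8.33% for T cells and 37.5% for type 2 innate lymphoid cells. The share for type 2 innate lymphoid cells counts Gata3, already described above, and the response gene Arg1. It is therefore not separate from those results. For mast cells and basophils the share was 0%, and for eosinophils 33.3%. T cell markers had 1 call among 12 tested of 18, the receptor chain Cd247 at 0.43 on the side of Gata3, with a list mean between -0.39 and 0.24 in single mice. That call was lost without mouse 2, 4 or 5, and without mouse 3 a negative call joined it. With arrays of equal spread or after quantile normalization, 2 negative calls stood beside 1 positive call. Markers of type 2 innate lymphoid cells had 2 negative calls and 1 positive call among 8 tested of 14, Arg1 at -2.26, Gata3 itself and the receptor Klrg1 at -0.44. Arg1, which is also in the list of response genes, carried the list mean, which ran from -0.67 to 0.11 with it and from -0.13 to 0.10 without it. Without mouse 1, 2, 4 or 6 there was 1 negative call, and without mouse 3 there were 3. Mast cell and basophil markers had no call in limma among 8 tested of 16, with Mcpt8 at -0.43 and Gata2 at 0.25 as values, and their mean stayed between -0.05 and 0.04; 2 genes passed at an unadjusted p of 0.05, and without mouse 1 there was 1 positive call. Of 11 eosinophil markers 3 were tested and 1 was called. Alox15, which is also in the list of response genes, was called at -0.59, whereas Prg2 at -0.06 and Siglecf at 0.01 were not. The mean of the eosinophil markers ran from -0.46 to -0.03, with Alox15 alone measured in mouse 5. The call of Alox15 was lost without any mouse but mouse 3 and after quantile normalization.

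Epithelial markers, from cells that make Il33 and Tslp, had 3 calls on each side among 18 tested of 22, with Scgb1a1 at 1.38 and Sftpc at 0.60 on the positive side and Epcam at -0.32, Cdh1 at -0.26 and Sftpd at -0.23 on the negative side. Their mean ran from -0.10 to 0.26. Without mouse 3 there were 1 negative and 6 positive calls, and without mouse 2, 4 or 6 there were 3, 2 and 3 calls in all. Endothelial markers had 6 calls, all positive, among 11 tested of 15, with Ramp2 at 1.09 and Tek at 0.93. Their mean was between 0.12 and 0.87. Of the 11 genes 2 had negative means and no call, Pecam1 at -0.36 and Emcn at -0.14. Without mouse 1 there were 6 positive calls and 1 negative call. Without mouse 2 or mouse 4 there were 4 positive calls, without mouse 6 there were 5 and without mouse 3 there were 8. Macrophage markers had 1 negative call among 6 tested of 11, Aif1 at -1.80, with a mean from -0.85 to 0.21. It was lost without any mouse but mouse 3, without which there were 2 calls. Fibroblast and smooth muscle markers had 3 negative calls and 1 positive call among 10 tested of 14, with Col3a1 at -1.67 and Col1a1 at -1.45, and a mean from -0.47 to -0.06, and 2 calls, both negative, without mouse 2 or mouse 4. The probes of Tek and Alox15 each lie 6, 18 or 24 numbers from a probe with a stronger ratio of their sign, and none of the 7 type 2 genes does. The called shares were 33.3% of epithelial, 54.5% of endothelial, 16.7% of macrophage and 40.0% of fibroblast and smooth muscle markers, against 24.4% of all tested probes. The part of cell makeup in the ratios of Il33, Tslp and Gata3 was not tested.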

How the data were processed

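Per the labels, each of the 6 two-colour arrays carried amplified lung RNA of 1 OVA mouse and, in the other channel, a control pool. The authors deposited 1 log ratio per spot, taken here as log2; the sources used here do not give base, direction, scanner, background correction or filters. Of 17280 probes, 14722 had 1 gene symbol, 1 had several and 2557 had none; 14445 symbols were updated through a mouse gene table (GRCm38.p6, names and gene order only). Each array was centred on its median over 8663 probes measured on all arrays, and 170 repeated rows and 4 plant control rows were left out. No arrays were duplicates: correlations across probes were at most 0.861. The number of arrays limits the precision.

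Probes with at least 4 values were tested with limma 3.58.1 in R 4.3.3 (intercept alone, eBayes, two-sided) and adjusted over 11629 probes at 0.05. The fit was tested on simulated data with independent noise between arrays. Those data held no shared pool and no dye effect, so the test does not check the calls against either. Lists use 1 probe per gene, that with the most values and then the smallest SD. The text names every type 2 gene, up to 4 called genes per pathway list and 2 per marker list with the largest means (or 2 values where none passed), and the 3 most alike probes. Il7r, Il17rb, Stat6, Klrg1, Epcam, Cdh1, Sftpd, Pecam1, Emcn, Prg2, Siglecf, Rad50 and Irf1 fall outside that rule and were picked once values were known. The same holds for the genes named as measured on too few arrays. The members and lists were chosen with earlier results of these data known. The alternatives run were uncentred values, arrays of equal spread, quantile normalization, other array minimums, weighted arrays, robust or no moderation, genes for probes, omitting probes beside a stronger probe, a stricter threshold, natural logarithms and leaving out each mouse. Plots were made in Python 3.11.15 (matplotlib 3.10.9).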

Additional observations from a re-analysis of the deposited data

How the results depend on the processing

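Of 117 values of the 7 type 2 genes under the alternatives to centring, scaling, array minimum, weights, moderation, probe choice, threshold and mice, 111 kept their direction and side of the threshold, none reversed, none gained a call and 6 lost one. Without moderated variances 1 gene passed, Tslp (adjusted p = 0.0269), with Gata3 at adjusted p = 0.0502 and Il33 at adjusted p = 0.0946 in the unmoderated limma fit. At an adjusted p of 0.01 also 1 gene passed, again Tslp. Over all 11629 tested probes the calls fell too, from 2832 to 1444 without moderation and to 746 at 0.01. Leaving out each mouse left between 2 and 3 calls, and the losses were those of Il33 without mouse 2 or mouse 4. With values required on all 6 arrays, Il4 and Il33 gave no value and 2 genes passed. Read as natural logarithms, the distances of Il33, Tslp and Gata3 would be 1.84-, 1.59- and 1.66-fold. The list counts under the scalings and without mice 1, 2, 4, 5 and 6 were added after seeing the data. In those, the negative calls among response genes were 14 without centring, 15 with equal spread and 13 after quantile normalization. No paired analysis was possible because there is 1 group of arrays, whose mice share no replicate numbers with control samples.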

Other observations

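The mice were ordered differently by the single cytokines, an observation made after their values were seen and given without a test. From the most negative ratio, Il4 ran through mice 4, 1, 2, 5 and 6, and Il5 through mice 1, 4, 2, 3, 6 and 5. Il13 ran through mice 2, 1, 6, 3, 4 and 5, and its receptor chain Il13ra1 through mice 2, 6, 1, 3, 4 and 5. In mouse 4, Il4 at -0.83 and Il33 at -0.81 were at percentiles 2.48 and 2.53 of the array while Il13 at -0.007 was at 48.7. Several of these differences are within 2 SDs of the repeated spots, 0.182 to 0.273 in single arrays.

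Among response genes outside the named ones, Ccl11, an eosinophil-attracting chemokine, was at -0.67 ± 0.55 (SD, n = 5) and missed the threshold (limma, adjusted p = 0.0516). Spdef, a goblet cell factor, had no call at -0.23 although Agr2, which assists mucin folding, was called at -1.33. F13a1, a clotting factor subunit of macrophages, was the gene called on the positive side, at 0.70, and was positive in 6 of 6 mice. These genes were chosen after their values were seen.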
